A study of Mus musculus with 26 samples.

Results

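The genes described here are 34 mitosis genes of the mouse, followed across 6 groups of sorted fetal and newborn reproductive tract mesenchyme. They were taken by name from the 41442 gene rows of each of 2 RNA-seq count tables. All 34 were found in both tables and all passed the filter on low counts, and the lowest count of any of them in any library was 617. The fetal table holds Gli1+ cells sorted from the mesonephros, the embryonic tissue around the genital ducts, of XX and XY fetuses at embryonic days E14.5 and E16.5, with 3 libraries in each of 4 groups. The second table holds Amhr2+ and Gli1+ cells sorted from the female uterus at E19.5, with 3 libraries in each of 2 groups. Animals carried Gli1-CreER with Rosa-Tomato or Amhr2-Cre with Rosa-Tomato, and their dams received 1 mg of tamoxifen by intraperitoneal injection on E12.5 and on E13.5. Gli1-CreER marks cells in which the Gli1 promoter was active when tamoxifen was given, and their descendants, so a Gli1+ cell need not express Gli1 at the time of the sort. Amhr2-Cre needs no tamoxifen and marks cells with a present or past activity of the Amhr2 promoter. The labels do not say which fetuses were pooled or whether replicates came from separate litters, so the p-values below measure the spread between libraries, which may in part be technical.

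Mitosis is driven by cyclin A and cyclin B bound to the kinase CDK1, together with the Polo and Aurora kinases. The chromosomal passenger complex, the kinetochore and the spindle checkpoint attach chromosomes to the spindle and hold the cell until attachment is complete, after which the anaphase-promoting complex releases the sister chromatids and the central spindle and its binding proteins divide the cell. Transcripts of these genes accumulate in late S phase, G2 and mitosis, and many of their promoters are read through a CHR element (cell cycle genes homology region) and CCAAT boxes by MuvB complexes, FOXM1 and NF-Y. In a sorted population their summed level is often read as a measure of cycling cells, but in bulk RNA fewer cycling cells and less mitotic RNA in each cycling cell cannot be told apart.

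RefSeq start-site windows (build GRCm38.p6, 250 bases before to 50 bases after the transcript start) were at hand for 29 of the 34 genes, and Ccna2, Incenp, Aurkb, Kif20a and Tpx2 had no entry. The 6 upstream stretches below are shown because these genes are the most abundant, among the members given with all their library values, that have a CHR spelling wholly ahead of the start. Each is written 5′ to 3′ in the direction of transcription and ends at the base before the start. Capitals mark 2 spellings of the CHR. The first is TTTGAA, read on the other strand as TTCAAA. The second is TTTAAA, which reads the same on both strands. Capitals also mark the CCAAT box, read on the other strand as ATTGG.
Mki67 (chr7:135716380-135716629, - strand): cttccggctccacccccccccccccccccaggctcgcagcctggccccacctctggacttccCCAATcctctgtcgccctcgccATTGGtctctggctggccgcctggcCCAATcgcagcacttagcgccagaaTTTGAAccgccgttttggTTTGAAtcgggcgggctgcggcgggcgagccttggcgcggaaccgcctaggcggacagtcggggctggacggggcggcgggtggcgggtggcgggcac
Top2a (chr11:99024190-99024439, - strand): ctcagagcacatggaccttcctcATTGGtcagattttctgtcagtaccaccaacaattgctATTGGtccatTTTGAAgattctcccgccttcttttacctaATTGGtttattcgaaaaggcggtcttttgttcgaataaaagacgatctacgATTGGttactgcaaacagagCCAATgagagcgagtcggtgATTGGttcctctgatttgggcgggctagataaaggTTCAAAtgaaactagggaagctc
Kif11 (chr19:37376132-37376381, + strand): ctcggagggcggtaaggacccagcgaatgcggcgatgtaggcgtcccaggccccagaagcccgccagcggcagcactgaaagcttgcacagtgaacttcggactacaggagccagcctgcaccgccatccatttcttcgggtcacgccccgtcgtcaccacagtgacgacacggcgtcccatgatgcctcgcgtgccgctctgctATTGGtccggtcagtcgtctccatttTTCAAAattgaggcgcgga
Cenpf (chr1:189688087-189688336, - strand): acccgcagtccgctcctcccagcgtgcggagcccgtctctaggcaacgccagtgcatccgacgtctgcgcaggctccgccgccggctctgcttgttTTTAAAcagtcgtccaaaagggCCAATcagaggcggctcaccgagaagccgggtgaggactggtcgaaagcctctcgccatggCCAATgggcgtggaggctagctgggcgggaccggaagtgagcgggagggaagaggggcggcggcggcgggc
Cdk1 (chr10:69352913-69353162, - strand): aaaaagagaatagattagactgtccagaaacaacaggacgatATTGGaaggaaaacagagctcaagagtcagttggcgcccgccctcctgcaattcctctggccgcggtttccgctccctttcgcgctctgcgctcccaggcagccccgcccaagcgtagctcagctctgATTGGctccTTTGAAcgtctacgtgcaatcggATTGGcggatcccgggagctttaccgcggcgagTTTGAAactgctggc
Prc1 (chr7:80294226-80294475, + strand): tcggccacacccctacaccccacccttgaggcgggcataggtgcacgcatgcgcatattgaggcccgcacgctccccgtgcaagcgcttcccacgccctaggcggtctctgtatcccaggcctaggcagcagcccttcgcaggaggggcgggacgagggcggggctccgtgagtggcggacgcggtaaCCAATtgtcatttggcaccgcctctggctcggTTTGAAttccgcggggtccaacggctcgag
The Mki67 stretch held 2 CHR spellings, whose first bases lay at -116 and -98 from the start. In Top2a they lay at -179 and -23, in Cdk1 at -71 and -15, in Kif11 at -19, in Prc1 at -30 and in Cenpf at -154.

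A CHR spelling stood in 25 of the 29 windows (86.2%), against 22.5% of 10996 genes tested in the fetal table that have a window and 30.6% of all 27025 genes with a window. TTTGAA alone was in 22 of 29 (75.9%, against 14.2% of tested genes and 20.2% of all), and TTTAAA in 9 of 29 (31.0%, against 11.2% and 14.9%). CCAAT boxes were in 22 of 29 (75.9%, against 42.5% of tested genes and 41.1% of all). Matches on either strand were counted, also where 2 of them touched or overlapped. Counting only the 100 bases before and the 50 bases after the start, 23 of 29 genes held a CHR spelling (79.3%), against 9.42% of tested genes and 14.7% of all, with 11 genes holding one before the start and 14 after it. Bub1 held CCAAT boxes and no CHR spelling, and the windows of Mad2l1, Nuf2 and Nusap1 held neither.

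**Figure D1:**
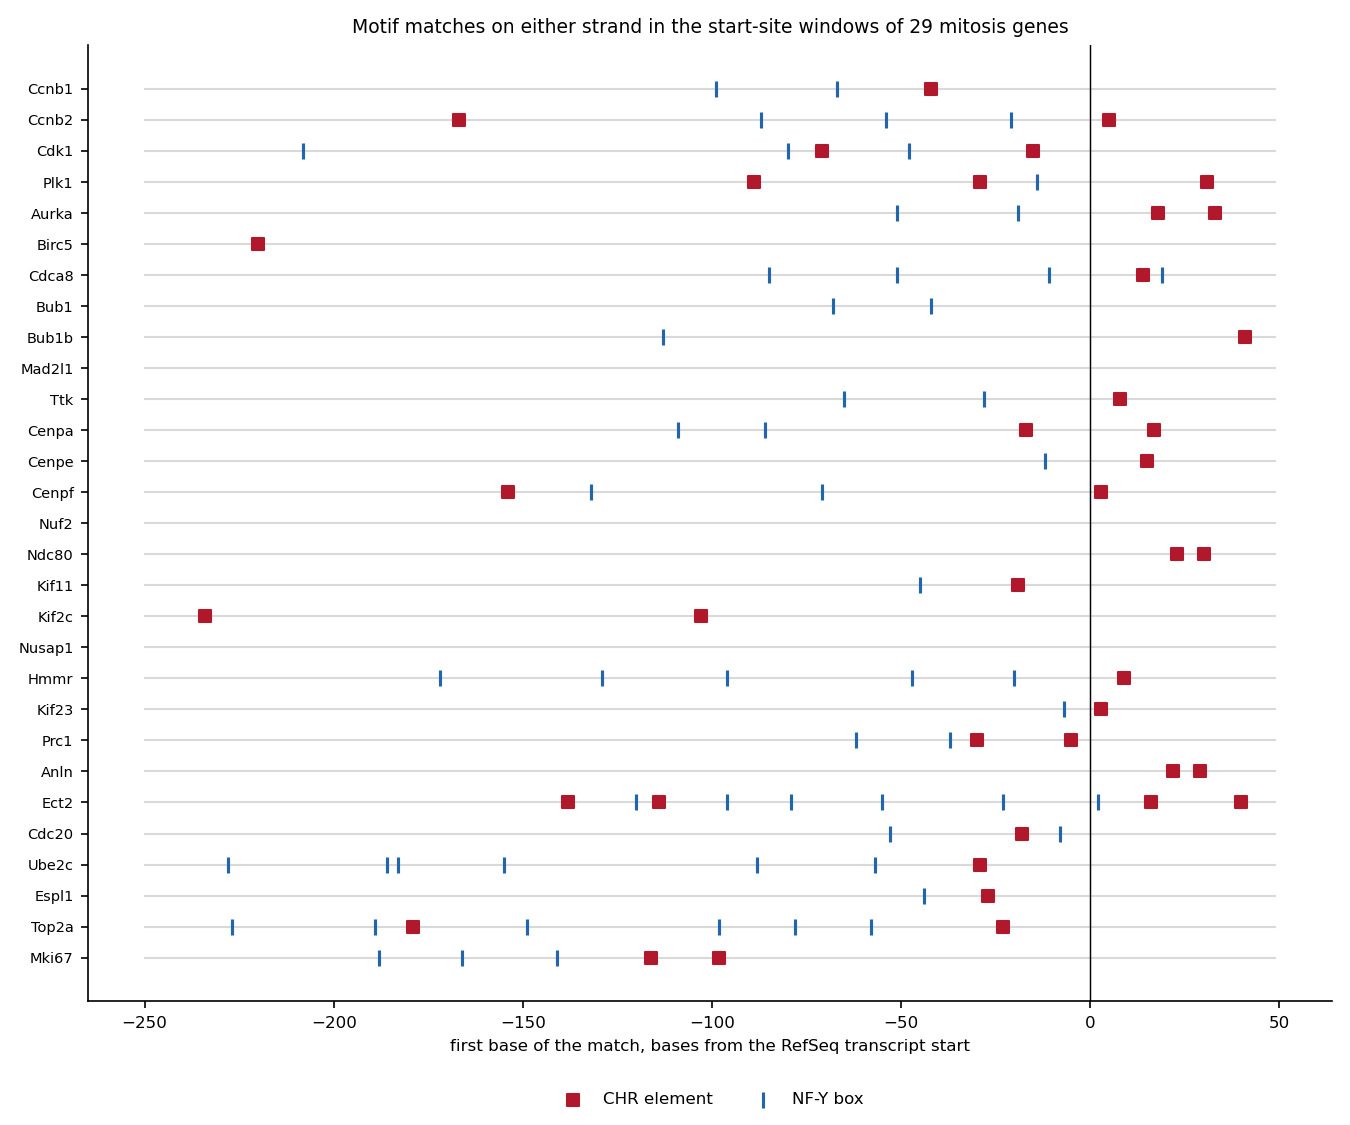
Motif matches in the start-site windows of 29 mitosis genes, by distance in bases of the first matched base from the RefSeq transcript start (0 is the first transcribed base); red squares are CHR spellings, blue ticks are CCAAT boxes, and Prc1 and Ect2 have 2 entries drawn on 1 line. Of the 29 genes, 25 have a CHR spelling and 22 a CCAAT box.

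Open chromatin was measured by ATAC-seq in 8 samples of Gli1+ fetal mesonephros, deposited as a unified list of 71040 peaks (mm10) that names no sample and gives no height. A peak overlapped the start-site window of 28 of the 29 mitosis genes (96.6%), against 84.8% of genes tested in the fetal table and 44.6% of all genes with a window. The exception was Kif2c, whose RefSeq start lies 3867 bases from the start of its row in the count table. With at least 150 bases of overlap required, 27 of 29 had a peak (93.1%, against 74.9% of tested genes), and the list cannot say whether accessibility differed between the groups.

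The fetal libraries hold 23382983 to 64602477 counts each, the uterine ones 28709191 to 37541045. Mesenchymal genes were abundant in all groups, with Col1a1 averaging 10900 to 22400 CPM (counts scaled to a common library total with TMM factors), while the marker lists of other cell types were uneven. Of the epithelial markers, Epcam averaged at most 6.61 CPM and Cdh1 at most 1.84, but Krt18 reached 24.7 and Krt19 22.6. Of the endothelial markers, Pecam1 averaged at most 1.39 CPM, but Emcn reached 64.1 and Kdr 55.1. Of the immune markers, Ptprc averaged at most 0.623 CPM, but Cd68 reached 57.4. Foxl2, on the gonad somatic list, reached 99.4 CPM in uterine Amhr2+ cells. Of the germ cell markers, Ddx4 reached 5.87 CPM in uterine Gli1+ cells, and Dppa3 was at 0 in all libraries. Gli1 itself averaged 184 and 228 CPM in the E14.5 XX and XY groups, 50.7 and 208 in the E16.5 XX and XY groups, and 17.9 in uterine Gli1+ against 10.5 in uterine Amhr2+ cells. Amhr2 averaged 11.1 CPM in uterine Amhr2+ and 4.1 in uterine Gli1+ cells. In the E14.5 XX group, erythroid markers summed to 949 CPM in the highest library and to 5.26 in the lowest.

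Per kilobase of exon, the mitosis genes spanned a 9.19-fold range of fetal levels, from Ndc80 (6.03 CPM per kb) to Top2a (55.4), with a median of 15.3. Top2a, the topoisomerase that untangles sister chromatids, and Mki67, which coats mitotic chromosomes, led the list at 55.4 and 55.2 CPM per kb, followed by Ccnb2 at 37.7. The length used was the union of all annotated exons (1531 bases for Ccnb2, 6493 for Ndc80), so range and ranks depend in part on the annotation. Among the 4 fetal groups, E16.5 XX had the lowest mean for 33 of the 34 genes, and the share of all genes for which this held was not counted. Which group was highest was divided, with 18 genes highest in E16.5 XY, 13 in E14.5 XX, 2 in E14.5 XY and 1, Mad2l1, in E16.5 XX.

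Summed over the 34 genes, the level was 4080, 3520 and 3920 CPM in the E14.5 XX libraries and 3470, 3740 and 3800 CPM in the E14.5 XY libraries. At E16.5 it was 2730, 2640 and 3120 CPM in XX and 3280, 3640 and 4560 CPM in XY. The E16.5 XX libraries lay below all 9 other fetal libraries, and no 2 of the other fetal groups were separated. In the uterus the sum was 3420, 3270 and 3980 CPM in Amhr2+ cells and 2790, 2500 and 3090 CPM in Gli1+ cells, which do not overlap either. The genes moved together between libraries of a group: replicate 3 was the highest of the 3 libraries for all 34 genes in E16.5 XX and in E16.5 XY, for 33 in uterine Amhr2+ and for 32 in uterine Gli1+, while in E14.5 XX replicate 2 was the lowest for all 34. The share of all genes highest or lowest in these libraries was not counted.

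**Figure D2:**
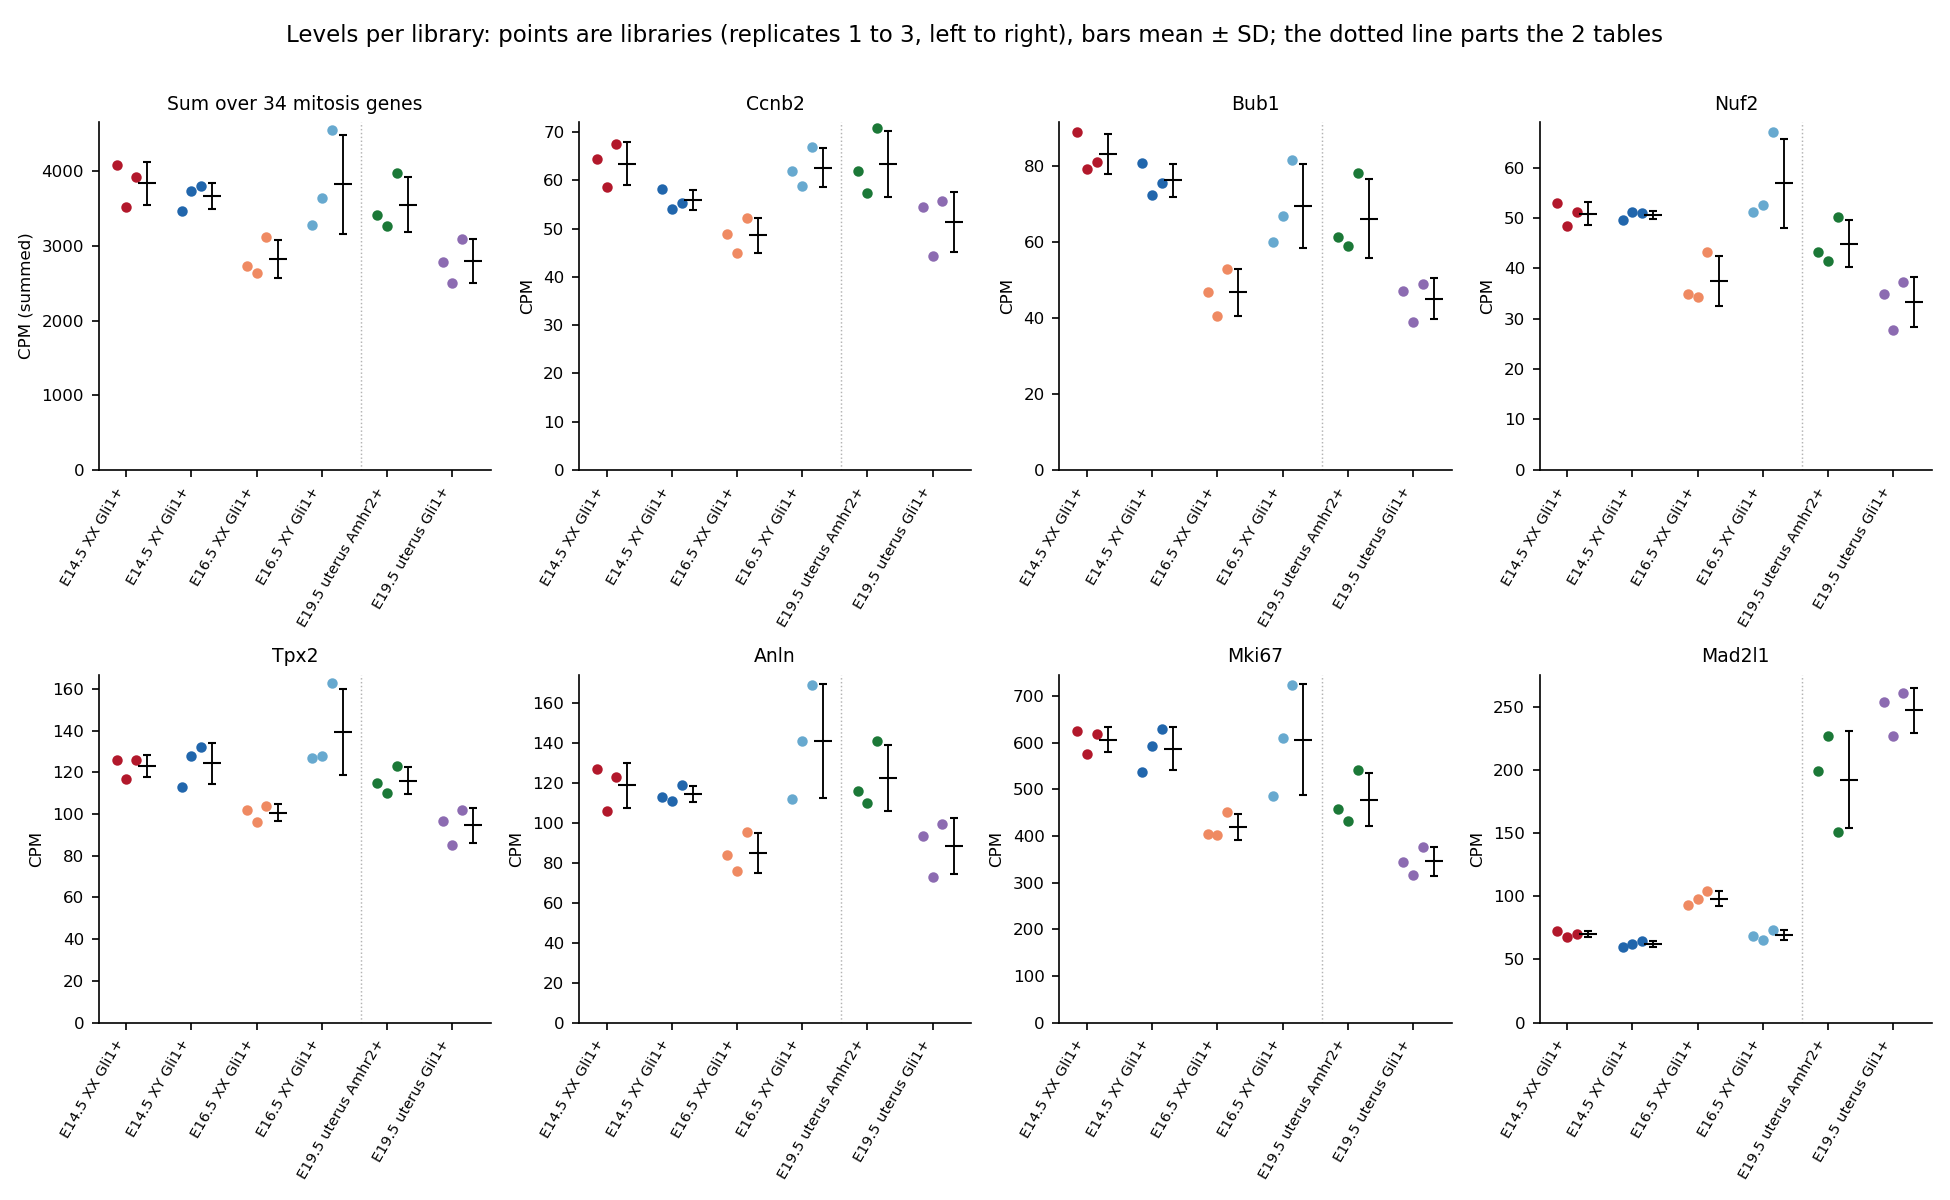
Summed level of the 34 mitosis genes and levels of 7 of them in CPM (linear axes from 0), with points for libraries and bars for mean ± SD (n = 3); the dotted line separates the 2 tables, which were normalised separately. The E16.5 XX libraries are the lowest fetal ones for the sum (2640 to 3120 CPM), and Mad2l1 is the exception, with its highest fetal levels there.

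XX and XY Gli1+ cells at E16.5 were compared, which asks how the mesonephric mesenchyme of the sexes differs at this age. Of the 34 mitosis genes, 28 were lower and 1 was higher in XX (edgeR quasi-likelihood test, Benjamini-Hochberg adjusted p under 0.05 over 17858 genes tested), and 5 did not pass. Over all genes tested, 27.3% passed in either direction and 14.1% were lower in XX. The median log2 fold change (XX minus XY) was -0.41 over the mitosis genes and 0.006 over all genes, and -0.27 over the mitosis genes without E16.5 XY replicate 3. For 22 genes every XX library lay below every XY library, as for 18.5% of all genes tested. In 33 genes XX was lower in all 3 pairs of libraries with the same replicate number. The pairs were not counted over all genes, and the mitosis genes moved together between libraries, so these are not 33 separate results. The estimates of the 28 lower genes ran from -0.73 (Anln) to -0.26 (Cdc20).

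Among the cyclins and kinases of mitotic entry, 4 of 6 were lower in E16.5 XX. Ccna2, the cyclin of S phase and early mitosis, stood at 87.9, 83 and 93.6 CPM in XX and 113, 112 and 147 CPM in XY. Cdk1, the mitotic kinase, stood at 96.2, 91.9 and 117 CPM in XX and 115, 119 and 150 CPM in XY. The Ccna2 groups were apart (log2 fold change -0.49 ± 0.10 SE, adjusted p = 0.00134), while the highest Cdk1 library of XX passed the lowest of XY (-0.33 ± 0.11, adjusted p = 0.0362). The cyclins B, Ccnb1 (-0.36) and Ccnb2 (-0.37), were lower too. Plk1 (-0.41, adjusted p = 0.125) and Aurka (-0.33, adjusted p = 0.225) did not pass.

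All 4 genes of the chromosomal passenger complex, which corrects faulty attachments, were lower in E16.5 XX, with log2 fold changes from -0.41 (Cdca8) to -0.32 (Birc5). Birc5, or survivin, stood at 57.7, 55.1 and 67.7 CPM in XX and 72.6, 69.9 and 82.7 CPM in XY. Incenp, the scaffold of the complex, stood at 75.6, 76.7 and 81.1 CPM in XX and 93.3, 85.4 and 118 CPM in XY. Neither gene's groups overlapped.

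The spindle checkpoint genes parted. Bub1, a checkpoint kinase at the kinetochore, stood at 47, 40.5 and 52.9 CPM in XX and 60, 67 and 81.8 CPM in XY (log2 fold change -0.57 ± 0.11, adjusted p = 0.0012). Bub1b, which encodes BUBR1 of the checkpoint complex, stood at 84.2, 81.1 and 90.4 CPM in XX and 96.3, 98.1 and 119 CPM in XY (-0.29, adjusted p = 0.0193). Both were lower with no overlap, and Ttk had an estimate of -0.40 that did not pass (adjusted p = 0.0635). Mad2l1, which encodes MAD2, the protein that binds and holds back CDC20, went the other way: 92.9, 97.9 and 104 CPM in XX against 68.9, 65.2 and 73.3 CPM in XY. All 3 XX libraries were above all 3 XY libraries (log2 fold change 0.51 ± 0.07, adjusted p = 2.65e-05), the smallest adjusted p of the 34 genes.

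All 5 centromere and kinetochore genes were lower in E16.5 XX. Cenpf, a large protein of the outer kinetochore, stood at 102, 103 and 110 CPM in XX and 118, 154 and 168 CPM in XY. Cenpe, the kinetochore motor, stood at 95.8, 92.8 and 108 CPM in XX and 102, 129 and 163 CPM in XY. Nuf2, a subunit of the NDC80 microtubule-binding complex, stood at 34.9, 34.3 and 43.2 CPM in XX and 51.1, 52.5 and 67.1 CPM in XY. Nuf2 had the clearest gap of these (log2 fold change -0.61 ± 0.10, adjusted p = 0.000394), whereas the highest XX value of Cenpe passed the lowest of XY (-0.41, adjusted p = 0.034). Ndc80 (-0.58) and Cenpa (-0.29), the centromeric histone, were lower as well.

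All 5 spindle motors and spindle-binding proteins were lower in E16.5 XX, with log2 fold changes from -0.59 (Nusap1) to -0.45 (Kif2c). Kif11, the motor that pushes spindle poles apart, stood at 119, 105 and 138 CPM in XX and 137, 163 and 208 CPM in XY. Tpx2, which activates Aurora A on the spindle, stood at 102, 96.3 and 104 CPM in XX and 127, 128 and 163 CPM in XY. The Tpx2 groups were apart (-0.47 ± 0.09, adjusted p = 0.00106), and those of Kif11 overlapped by 1 library on each side (-0.49, adjusted p = 0.0152).

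The genes of the central spindle and of cytokinesis had the largest median difference (-0.58), with 4 of 5 lower in E16.5 XX. Anln, which encodes anillin, the scaffold of the contractile ring, stood at 83.6, 75.6 and 95.2 CPM in XX and 112, 141 and 169 CPM in XY (log2 fold change -0.73 ± 0.13, adjusted p = 0.000831). Prc1, which bundles central spindle microtubules, stood at 63.4, 66.4 and 82.3 CPM in XX and 86.6, 108 and 142 CPM in XY (-0.67 ± 0.16, adjusted p = 0.00845). Kif23, a motor of centralspindlin, stood at 87.6, 81.8 and 98.3 CPM in XX and 102, 107 and 145 CPM in XY. None of these 3 overlapped between the sexes, and in each the XY group spread more than the XX group. Ect2, the exchange factor that starts ring assembly, stood at 33.6, 28 and 39.6 CPM in XX and 39.3, 44.2 and 67.5 CPM in XY, an estimate of -0.58 that did not pass (adjusted p = 0.0594).

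The anaphase genes had the smallest median difference of the roles (-0.29). Cdc20, the activator of the anaphase-promoting complex, stood at 48.5, 47.4 and 53.5 CPM in XX and 56.3, 55 and 67.5 CPM in XY (log2 fold change -0.26, adjusted p = 0.0459). Espl1, which encodes separase, stood at 61.4, 60.3 and 67.3 CPM in XX and 69.7, 73.6 and 89.6 CPM in XY (-0.30, adjusted p = 0.0238). Both were apart by a few CPM, and Ube2c (-0.29, adjusted p = 0.134) did not pass. Of the abundant pair, Top2a stood at 342, 334 and 424 CPM in XX and 414, 493 and 618 CPM in XY (-0.47, adjusted p = 0.0152). Mki67 stood at 405, 402 and 451 CPM in XX and 485, 611 and 723 CPM in XY (-0.53 ± 0.11, adjusted p = 0.00233), with no overlap for Mki67 and a small one for Top2a.

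Which of these calls held depended on the libraries. The count of 29 genes fell to 15 without E16.5 XX replicate 1, to 13 without E16.5 XX replicate 2 and to 15 without E16.5 XY replicate 3, the deepest library. Over all genes tested the calls went from 4883 to 3854, 3618 and 3757 in the same order. Whichever E16.5 library was left out, 13 mitosis genes passed: Ccna2, Ccnb2, Bub1, Mad2l1, Cenpf, Nuf2, Tpx2, Nusap1, Hmmr, Kif20a, Prc1, Anln and Mki67. With the replicate number as a block, Ttk (adjusted p = 0.00173) and Ect2 (adjusted p = 0.00401) passed too. Markers of other cell types also moved between these groups: in XX against XY the summed epithelial markers ran from 23.1 to 32.4 against 32.5 to 40.6 CPM (1 of 8 tested markers lower), endothelial from 64.3 to 77.5 against 81.8 to 91.5 (2 of 5 lower, 1 higher), and gonad somatic from 45.5 to 51.6 against 63.7 to 71.5 (2 of 5 lower). Foxl2 made up most of the gonad somatic sum, averaging 34.3 CPM in XX and 52.3 in XY. Cd68 made up most of the immune sum, at 34.5 and 30.8. Immune markers ran from 27.8 to 71.1 against 12.3 to 46.2 CPM (3 of 5 higher), erythroid from 12.2 to 23.9 against 4.83 to 8.08 (0 of 5 called), neural averaged 11.4 against 10.9 (0 of 3 called), germ cell from 0.505 to 0.857 against 1.5 to 2.3 (2 of 2 lower) and mesenchymal from 55400 to 64600 against 45800 to 57200 (4 of 9 higher, 3 lower). Their part in the result was not tested.

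**Figure D3:**
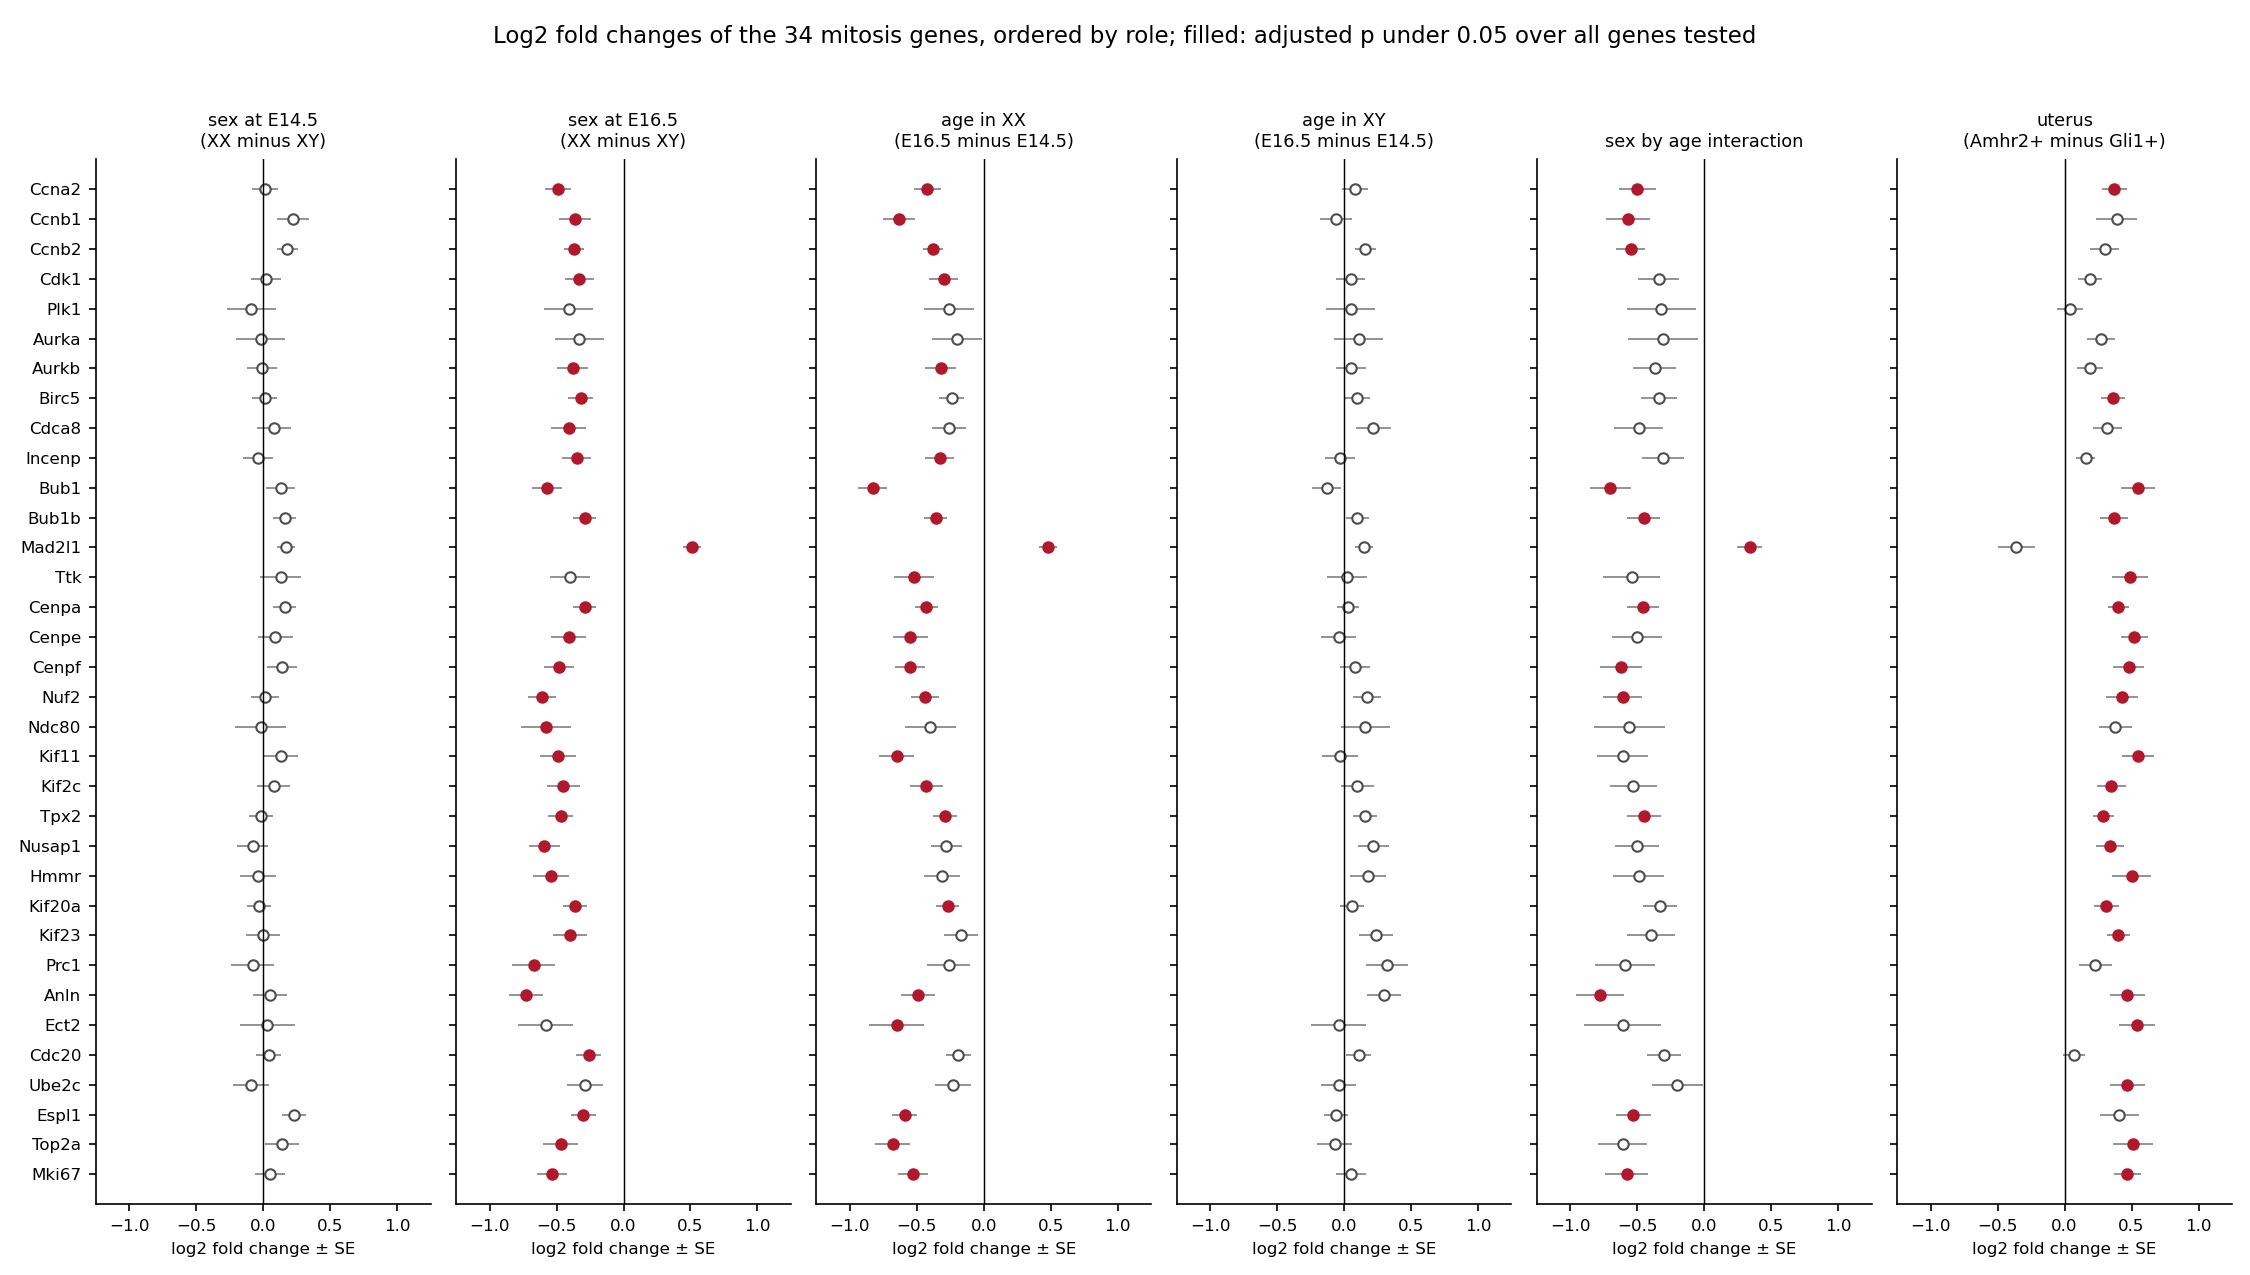
Log2 fold changes ± SE of the 34 mitosis genes in 6 comparisons, 1 panel each, genes in rows by role; filled red points have an adjusted p under 0.05 over all genes tested. The points lie left of 0 for 33 genes in the E16.5 sex and XX age panels and right of 0 for 33 in the uterine panel, with Mad2l1 on the other side each time.

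At E14.5 none of the 34 genes differed between XX and XY by edgeR (0 of 34, 3 at an unadjusted p under 0.05, and 0 by DESeq2), against 6.28% of all genes tested. The median log2 fold change was 0.04 over the mitosis genes and -0.014 over all genes, and single estimates ran from -0.09 (Plk1 and Ube2c) to 0.23 (Espl1). Ccna2 stood at 128, 110 and 116 CPM in XX and 108, 124 and 119 CPM in XY. Mki67 stood at 626, 576 and 618 CPM in XX and 538, 594 and 629 CPM in XY. The groups overlapped for 31 of the 34 genes, and Ccnb2, Mad2l1 and Espl1 lay higher in all XX libraries without passing the test. Overlap at this age was not counted over all genes.

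Further members at E14.5 did not pass either. Among the kinases and passengers, Cdk1 stood at 132, 118 and 126 CPM in XX and 112, 133 and 126 CPM in XY. Birc5 stood at 72.2, 67.8 and 72.5 CPM in XX and 61, 72 and 77 CPM in XY. Incenp stood at 105, 91.3 and 97.9 CPM in XX and 86.8, 111 and 104 CPM in XY. In each of these 3 the sexes overlapped. Checkpoint genes leaned higher in XX without passing: Bub1 stood at 89.2, 79.2 and 81.2 CPM in XX and 81, 72.4 and 75.5 CPM in XY. Bub1b stood at 115, 97.8 and 115 CPM in XX and 94.2, 95.5 and 103 CPM in XY. Mad2l1 stood at 72.7, 67.7 and 70.2 CPM in XX and 60, 62.5 and 64.9 CPM in XY (log2 fold change 0.17, adjusted p = 0.172). Estimates for these 3 were 0.13 to 0.17, above the median of the list.

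For the kinetochore, Cenpe stood at 155, 132 and 147 CPM in E14.5 XX and 134, 133 and 139 CPM in XY. Cenpf stood at 164, 134 and 161 CPM in XX and 142, 127 and 147 CPM in XY. Nuf2 stood at 53, 48.4 and 51.1 CPM in XX and 49.7, 51.2 and 51 CPM in XY. The Nuf2 estimate was 0.01 at this age. Of the spindle genes, Kif11 stood at 204, 170 and 192 CPM in XX and 178, 173 and 168 CPM in XY. Tpx2 stood at 126, 117 and 126 CPM in XX and 113, 128 and 132 CPM in XY. Kif23 stood at 111, 88.1 and 101 CPM in XX and 92.1, 107 and 101 CPM in XY. These 3 overlapped as well. For cytokinesis, Anln stood at 127, 106 and 123 CPM in XX and 113, 111 and 119 CPM in XY. Prc1 stood at 89, 78 and 87.4 CPM in XX and 80, 92.7 and 96.5 CPM in XY. Ect2 stood at 63.7, 44.1 and 50.9 CPM in XX and 51.6, 51.5 and 52.1 CPM in XY. Estimates for these 3 lay between -0.08 and 0.05. Of the last members, Cdc20 stood at 57.8, 54.5 and 58.3 CPM in XX and 48.2, 59.8 and 57.5 CPM in XY. Espl1 stood at 103, 84.8 and 97.2 CPM in XX and 78.3, 80.6 and 84.6 CPM in XY. Top2a stood at 644, 529 and 588 CPM in XX and 548, 519 and 536 CPM in XY. Espl1 was the member with the highest E14.5 estimate (0.23, adjusted p = 0.19).

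From E14.5 to E16.5 the mitosis genes fell in XX cells: 22 of 34 were lower at E16.5, 1 was higher and 11 did not pass, against 39.6% of all genes called in either direction and 18.6% lower. The median log2 fold change (E16.5 minus E14.5) was -0.37 over the mitosis genes and 0.005 over all genes. For 25 genes all E16.5 XX libraries lay below all E14.5 XX libraries, as for 27.4% of all genes tested. The fall was greatest for Bub1 (log2 fold change -0.83 ± 0.11, adjusted p = 3.75e-05), then Top2a (-0.68 ± 0.13, adjusted p = 0.00109) and Kif11 (-0.65 ± 0.13, adjusted p = 0.00205), and Ect2 (-0.65) and Ccnb1 (-0.63) followed. In each of these 5 the lowest E14.5 XX library stood above the highest E16.5 XX library. Mad2l1 rose (0.48 ± 0.07, adjusted p = 3.51e-05).

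By role, 4 of 6 entry cyclins and kinases, 2 of 4 passenger genes, 3 of 4 checkpoint genes, 4 of 5 kinetochore genes, 3 of 5 spindle genes, 3 of 5 cytokinesis genes, 1 of 3 anaphase genes and both chromosome genes were lower at E16.5 in XX. Cytokinesis genes, which had the largest gap between the sexes at E16.5, had a median of -0.27 here, and Prc1 (-0.26, adjusted p = 0.218) and Kif23 (-0.17, adjusted p = 0.324) did not pass. The count of 23 fell to 15 without E14.5 XX replicate 3 and to 15 without E16.5 XX replicate 2. Over all genes tested the calls went from 7068 to 5804 and 5738 in the same order. Among marker lists, the sums of epithelial markers ran from 30.5 to 34.9 CPM at E14.5 and from 23.1 to 32.4 at E16.5 in XX (2 of 8 lower), endothelial from 112 to 123 and from 64.3 to 77.5 (3 of 5 lower), gonad somatic from 44.5 to 46.8 and from 45.5 to 51.6 (1 of 5 higher, 4 lower), and mesenchymal from 39300 to 41400 and from 55400 to 64600 (4 of 9 higher, 3 lower). The summed immune markers averaged 61.6 ± 5.44 CPM (SD, n = 3) at E14.5 and 46.9 ± 22.1 at E16.5 (3 of 5 markers higher). Cd68 made up most of the immune sum, averaging 57.4 and 34.5 CPM in XX, and Foxl2 of the gonad somatic list averaged 19.8 and 34.3. Erythroid markers summed to between 5.26 and 949 and between 12.2 and 23.9 (2 of 5 lower), germ cell to between 0.557 and 0.833 and between 0.505 and 0.857 (0 of 2 called), and neural markers averaged 13.3 and 11.4 (0 of 3 called). Their part in the result was not tested.

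In XY cells none of the 34 genes passed between E14.5 and E16.5 by edgeR (0 of 34, 3 at an unadjusted p under 0.05, and 0 by DESeq2), while 23.3% of all genes tested did. The median log2 fold change was 0.08 over the mitosis genes and -0.012 over all genes, and estimates ran from -0.13 (Bub1) to 0.32 (Prc1). Without E16.5 XY replicate 1, 2 genes passed. Mki67 and Cdk1 had estimates of 0.05 each, and Mad2l1 of 0.15 (adjusted p = 0.124).

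The difference between the sexes itself differed between the ages: the sex by age interaction passed for 13 of 34 genes, 12 below 0 and 1 above, against 10.0% of all genes called in either direction and 5.36% below 0. Below 0 means that XX fell more, or rose less, with age than XY. The estimates were lowest for Anln (-0.78 ± 0.18, adjusted p = 0.0134), Bub1 (-0.70 ± 0.16, adjusted p = 0.00857) and Cenpf (-0.62 ± 0.16, adjusted p = 0.0202), and Mad2l1 was above 0 (0.34 ± 0.09, adjusted p = 0.0283). The median was -0.50 over the mitosis genes and 0.019 over all genes, and 33 estimates were below 0. With the replicate block 27 genes passed. Between 5 and 21 genes passed when 1 library was left out: 5 without E14.5 XX replicate 1 or without E14.5 XX replicate 3, 7 without E14.5 XY replicate 2 or without E16.5 XX replicate 1, 6 without E16.5 XX replicate 2, and 21 without E16.5 XY replicate 1. Over all genes tested these fits called 1335, 1393, 1448, 1446, 1396 and 2687 in the same order, against 1790 with all libraries. Ccnb2, Bub1, Nuf2 and Anln passed each time.

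**Figure D4:**
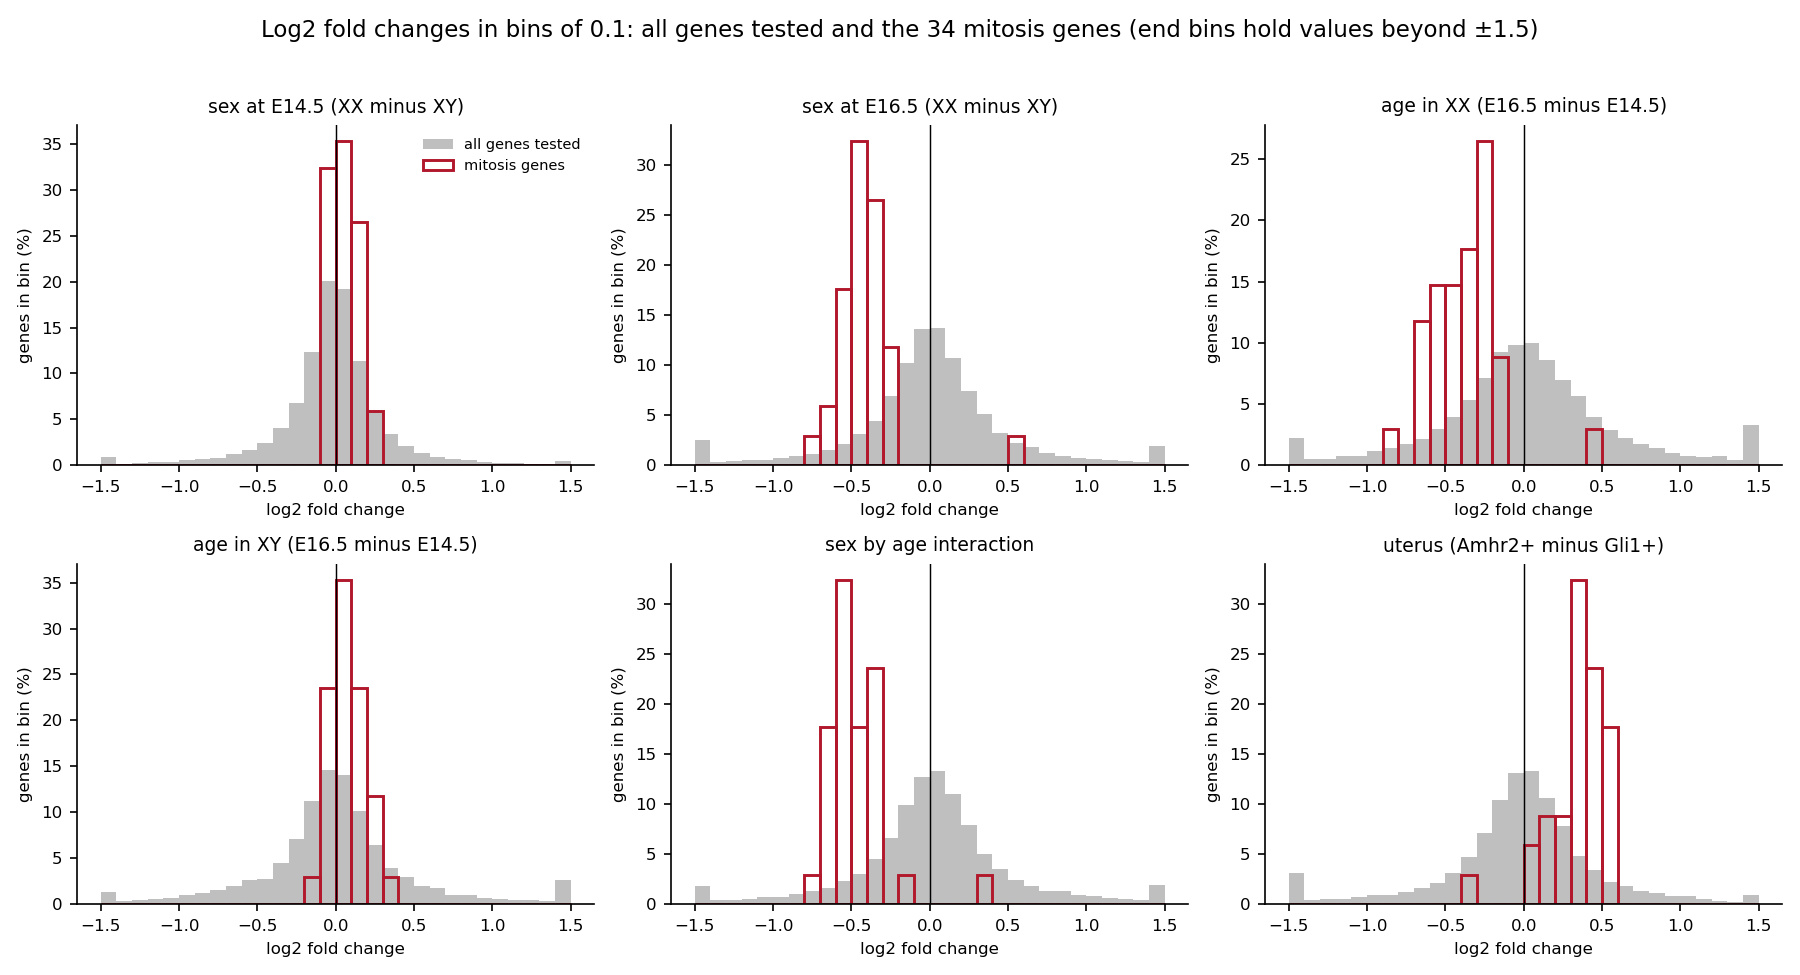
Share of genes (%) in bins of 0.1 of the log2 fold change, for all genes tested (grey) and the 34 mitosis genes (red outline), 1 panel per comparison; end bins hold values beyond 1.5 in size. The mitosis genes centre near 0 at E14.5 and in XY age, below 0 in the E16.5 sex (median -0.41) and XX age (-0.37) panels, and above 0 in the uterus (0.37).

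In the E19.5 uterus, Amhr2+ and Gli1+ cells were compared, 2 sorted mesenchymal populations marked by different Cre lines. Cell population, Cre line and way of marking cannot be told apart in this comparison. Of the 34 mitosis genes, 21 were higher in Amhr2+ cells, none was lower and 13 did not pass, against 23.9% of all 16195 genes tested called in either direction and 10.1% higher. The median log2 fold change (Amhr2+ minus Gli1+) was 0.37 over the mitosis genes and -0.002 over all genes. For 27 genes all Amhr2+ libraries lay above all Gli1+ libraries, as for 21.2% of all genes tested. The largest were Bub1 (0.55 ± 0.13, adjusted p = 0.0167), Kif11 (0.55 ± 0.12, adjusted p = 0.0126) and Ect2 (0.54 ± 0.14, adjusted p = 0.0246).

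Of the mitotic entry genes 1 of 6 passed, Ccna2, which stood at 133, 127 and 148 CPM in Amhr2+ and 106, 93.3 and 117 CPM in Gli1+ cells. Cdk1 stood at 120, 117 and 138 CPM in Amhr2+ and 109, 98.3 and 121 CPM in Gli1+ cells, an estimate of 0.19 that did not pass (adjusted p = 0.173). Plk1 was nearly level (0.04). Of the passenger complex, Birc5 passed, at 60.6, 56.3 and 68.4 CPM in Amhr2+ and 47.3, 44.7 and 52 CPM in Gli1+ cells. Incenp stood at 75.6, 76 and 86.3 CPM in Amhr2+ and 73.5, 68.3 and 71.4 CPM in Gli1+ cells (0.16, adjusted p = 0.143). The entry and passenger genes had the smallest shares of calls among the roles.

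The checkpoint genes were higher but for Mad2l1. Bub1 stood at 61.3, 59.1 and 78.3 CPM in Amhr2+ and 47.2, 39.1 and 49.1 CPM in Gli1+ cells. Bub1b stood at 97.3, 92.7 and 117 CPM in Amhr2+ and 79.3, 71 and 87.1 CPM in Gli1+ cells. Neither overlapped, and Ttk passed too (0.49). Mad2l1 stood at 199, 227 and 151 CPM in Amhr2+ and 254, 227 and 261 CPM in Gli1+ cells, with replicate 2 nearly equal in both populations (log2 fold change -0.36 ± 0.14, adjusted p = 0.0961, and adjusted p = 0.0436 by DESeq2). Its estimate was -0.21 without Amhr2+ replicate 3, and -0.49 without Amhr2+ replicate 2, where it passed (adjusted p = 0.0295). In the fit of all libraries it was again the member whose estimate was opposite to the others, here without passing the test.

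Of the kinetochore genes 4 of 5 were higher. Cenpe stood at 111, 105 and 135 CPM in Amhr2+ and 80.5, 76.1 and 87 CPM in Gli1+ cells (0.52 ± 0.10, adjusted p = 0.0073), the smallest adjusted p of the list. Cenpf stood at 141, 127 and 165 CPM in Amhr2+ and 104, 90.8 and 115 CPM in Gli1+ cells. Nuf2 stood at 43.2, 41.4 and 50.2 CPM in Amhr2+ and 35, 27.7 and 37.3 CPM in Gli1+ cells. All 3 were apart, and Ndc80 (0.38, adjusted p = 0.0555) did not pass. All 5 spindle genes were higher: Kif11 stood at 150, 137 and 188 CPM in Amhr2+ and 101, 104 and 118 CPM in Gli1+ cells. Tpx2 stood at 115, 110 and 123 CPM in Amhr2+ and 96.5, 85.4 and 102 CPM in Gli1+ cells. The spindle genes ran from 0.29 (Tpx2) to 0.55 (Kif11).

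Of the cytokinesis genes 4 of 5 were higher. Anln stood at 116, 110 and 141 CPM in Amhr2+ and 93.1, 72.7 and 99.2 CPM in Gli1+ cells. Kif23 stood at 105, 107 and 121 CPM in Amhr2+ and 81.5, 77.3 and 93.3 CPM in Gli1+ cells. Ect2 stood at 47.6, 45.6 and 61.1 CPM in Amhr2+ and 36.3, 30.2 and 39.7 CPM in Gli1+ cells. These 3 were apart. Prc1, which stood at 91.3, 89.3 and 106 CPM in Amhr2+ and 79.8, 69.2 and 95.7 CPM in Gli1+ cells, overlapped and did not pass (0.23, adjusted p = 0.206). Of the anaphase genes Ube2c alone passed (0.47, adjusted p = 0.0352). Cdc20 stood at 54.5, 49.6 and 60.7 CPM in Amhr2+ and 52.8, 49.7 and 54.5 CPM in Gli1+ cells (0.07). Espl1 stood at 64.9, 59 and 80.9 CPM in Amhr2+ and 54.2, 42.4 and 57.4 CPM in Gli1+ cells (0.41, adjusted p = 0.0784). Both Top2a and Mki67 were higher. Top2a stood at 439, 397 and 547 CPM in Amhr2+ and 310, 276 and 383 CPM in Gli1+ cells (0.51, adjusted p = 0.0432). Mki67 stood at 459, 433 and 542 CPM in Amhr2+ and 344, 316 and 377 CPM in Gli1+ cells (0.47 ± 0.10, adjusted p = 0.0112).

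The uterine count moved with single libraries. The 21 calls became 6 without Amhr2+ replicate 1, 8 without Amhr2+ replicate 3, 4 without Gli1+ replicate 1 and 8 without Gli1+ replicate 2, and Bub1, Cenpa, Cenpe and Mki67 passed each time. Over all genes tested the calls went from 3866 to 1949, 2936, 2521 and 3410 in the same order. In Amhr2+ against Gli1+ cells the epithelial markers summed to between 71.6 and 73.7 against 31.2 and 43.3 CPM (4 of 7 tested markers higher), gonad somatic markers to between 72.6 and 121 against 62.7 and 65.8 (1 of 4 higher), and mesenchymal markers to between 26200 and 28000 against 54400 and 61400 (1 of 9 higher, 6 lower). Foxl2 made up most of the gonad somatic sum (means 99.4 and 62.2 CPM) and Cd68 most of the immune sum (53.2 and 35.5). Endothelial markers summed to between 23.8 and 29.6 against 36.7 and 44.9 CPM (2 of 5 lower), immune to between 43.7 and 83.8 against 21.5 and 83.3 (0 of 5 called), erythroid to between 0.539 and 1.06 against 2.59 and 3.19 (2 of 2 lower), neural to between 10.6 and 14.7 against 9.57 and 9.95 (0 of 2 called), and germ cell to between 0.475 and 0.944 against 5.28 and 6.53 (1 of 1 lower). Their part in the result was not tested.

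The E16.5 sex comparison and the uterine comparison share no library. Of the 28 genes lower in E16.5 XX and the 21 higher in uterine Amhr2+ cells, 18 were the same genes, 64.3% of the first list and 85.7% of the second. The second share lies near the 82.4% of all 34 members that were lower in E16.5 XX, so nothing is read from the overlap. Over all genes higher in uterine Amhr2+ cells and tested in both tables, 22.5% were lower in E16.5 XX. The uterine calls that were not among the 28 were Ect2, Ttk and Ube2c. The E16.5 calls without a uterine one included Cdk1, Incenp, Cdc20 and Prc1, and Prc1 had the second largest E16.5 difference.

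**Figure D5:**
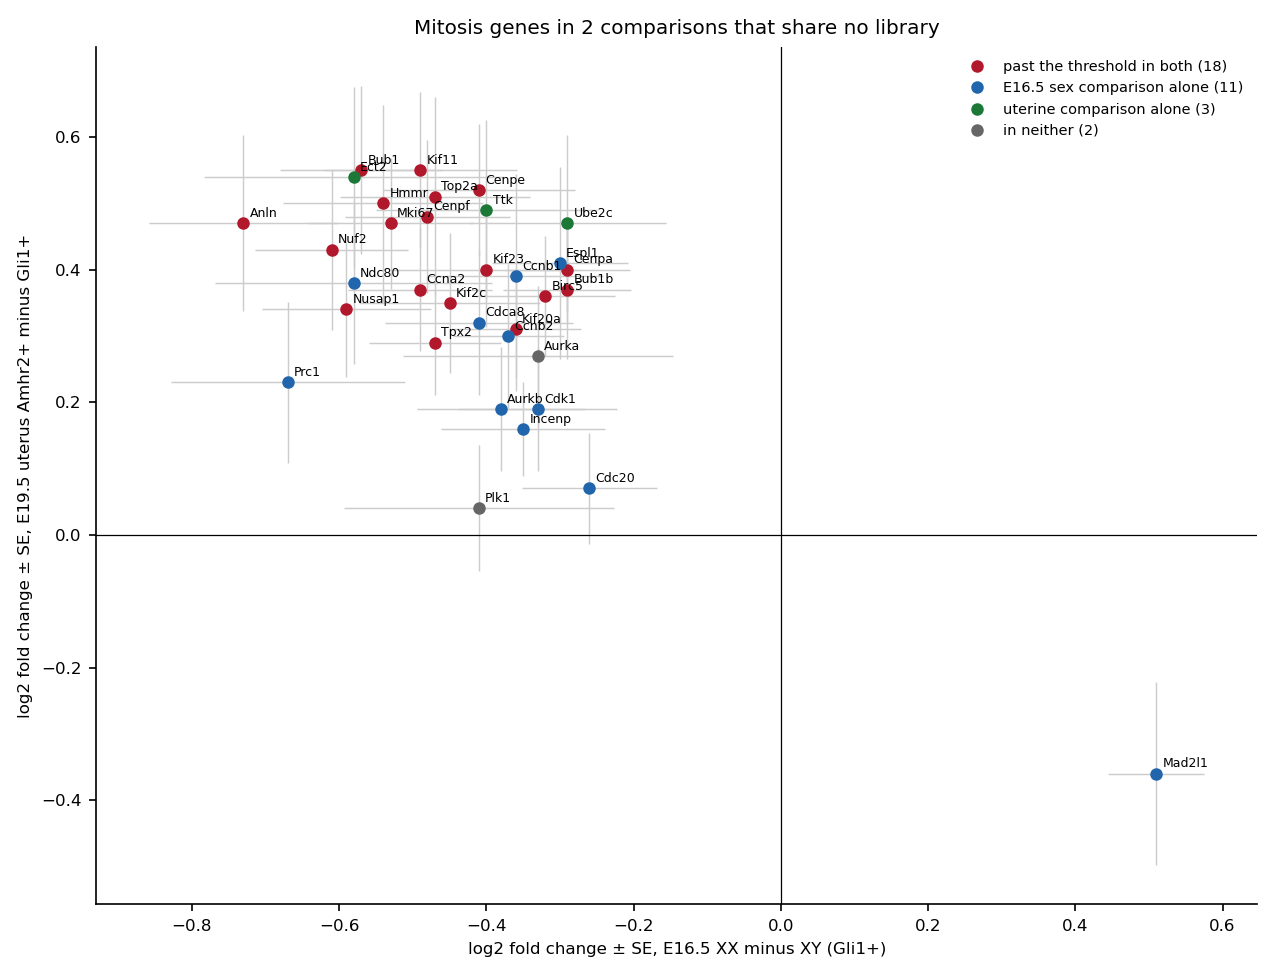
Log2 fold change ± SE of each mitosis gene in E16.5 XX minus XY (horizontal) and in uterine Amhr2+ minus Gli1+ (vertical), coloured by where its adjusted p is under 0.05. All genes but Mad2l1 lie in the upper left field, and Mad2l1 lies at 0.51 and -0.36.

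Mad2l1 (chr6:66535390-66547220, mm10, + strand) overlapped no other row of the count tables. Its E16.5 sex difference ran from 0.46 to 0.54 on the log2 scale when each E16.5 library was left out, and it passed each time. Its uterine levels were above its fetal levels in both populations, but the tables come from different library kits and were normalised separately, so this was not tested. Of the 34 members, 13 overlap another row, 10 of them on the opposite strand (such as Ccna2 with Exosc9, Nusap1 with Oip5, Prc1 with Rccd1 and Cdc20 with Elovl1). Overlap was taken over whole gene spans, introns included, and overlap of exons was not counted. The fetal kit keeps no strand, so fetal reads from exon bases shared by opposite-strand neighbours, where there are any, cannot be told apart.

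Other genes of the cell cycle were read from further lists. Of 62 other mitosis genes, 46 were lower in E16.5 XX and none higher (median log2 fold change -0.43), where 14.1% of all genes tested were lower. The list was led by Cenpk (-0.75, adjusted p = 0.000226), a kinetochore protein, and Cep55 (-0.69, adjusted p = 0.0118), which acts in the last step of cell separation. With age in XX, 42 were lower, beside 18.6% of all genes, led by Kntc1 (-0.81) and Smc2 (-0.79), a condensin subunit. In XY 2 were lower and 1 higher, beside 23.3% of all genes called in either direction. The interaction passed for 23, all below 0, beside 5.36% of all genes below 0. In the uterus 29 were higher in Amhr2+ cells, among them Stil (0.73), and none was lower, beside 10.1% of all genes higher.

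Of 42 DNA replication genes, 28 were lower in E16.5 XX and 34 lower with age in XX, with none higher in either, and the interaction passed for 19, all below 0. The shares of all genes tested were 14.1%, 18.6% and 5.36% in the same order. Rrm2, a subunit of ribonucleotide reductase, had the largest E16.5 sex difference (-0.63, adjusted p = 0.000114), and Cdc6, which loads the replicative helicase, the largest with age in XX (-0.89, adjusted p = 7.22e-06). In the uterus 3 of 42 were higher, led by Mcm10 (0.53, adjusted p = 0.0329), with a median of 0.22, a smaller share than the 10.1% of all genes. Whether replication genes moved less than mitosis genes there was not tested.

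Of 22 transcription factors that read cell cycle promoters, 10 were lower in E16.5 XX and none higher, where 14.1% of all genes were lower. The largest differences were those of E2f7 (-0.74, adjusted p = 0.00622), an E2F repressor, and Rbl2 (-0.67, adjusted p = 8.01e-06), which encodes the pocket protein p130. Rbl2 stood at 48.1, 47.3 and 45.2 CPM in E16.5 XX and 69.5, 79.9 and 74.3 CPM in XY. Foxm1, a forkhead factor of G2 genes, stood at 77.2, 75.1 and 78.2 CPM in E16.5 XX and 93.3, 93.8 and 110 CPM in XY (-0.37 ± 0.08, adjusted p = 0.00306). Mybl2, the B-Myb partner of MuvB, stood at 14.4, 13.5 and 16.6 CPM in XX and 19, 20.1 and 24.4 CPM in XY (-0.52 ± 0.11, adjusted p = 0.00289). Both were apart, and both were lower with age in XX too (-0.44 and -0.52). In the uterus 4 of 22 were higher, beside 10.1% of all genes, led by E2f2 (0.64) and E2f3 (0.47), and Foxm1 (0.17, adjusted p = 0.121) and Mybl2 (0.16, adjusted p = 0.374) did not pass.

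Of 16 G1 cyclins and CDK inhibitors 14 were tested, and in E16.5 XX 7 were lower and 2 higher, where 27.3% of all genes were called in either direction and 14.1% were lower. The largest differences were those of Ccne2 (-0.93, adjusted p = 0.000517), a cyclin E, and Cdkn2c (-0.89, adjusted p = 0.000147), which encodes the CDK inhibitor p18. Ccne2 stood at 16.8, 14.2 and 19.8 CPM in E16.5 XX and 25.3, 32.3 and 38.7 CPM in XY. Cdkn2c stood at 13.2, 13.7 and 14.2 CPM in XX and 22.1, 24.4 and 30 CPM in XY. Neither overlapped. Cdkn2c had risen with age in both sexes (0.96 in XX and 1.47 in XY), and in the uterus it was lower in Amhr2+ cells (-0.94, adjusted p = 0.00454). Ccnd2, a D-type cyclin, stood at 411, 438 and 421 CPM in E16.5 XX and 504, 654 and 635 CPM in XY (-0.50 ± 0.08, adjusted p = 0.000316), and had stood at 801, 798 and 772 CPM in E14.5 XX. Ccnd1 was lower too (-0.52, adjusted p = 4.21e-06). The 2 higher genes were Cdk4 (0.16) and Cdkn1c, which encodes the CDK inhibitor p57. Cdkn1c stood at 421, 424 and 407 CPM in E16.5 XX and 377, 338 and 326 CPM in XY (0.27 ± 0.06, adjusted p = 0.00538). At E14.5 it had been lower in XX, at 244, 254 and 264 CPM against 325, 344 and 327 CPM (-0.38, adjusted p = 0.00172), and its interaction was 0.65 (adjusted p = 0.000201). In the uterus it was lower in Amhr2+ cells, at 519, 488 and 485 CPM against 688, 692 and 705 CPM (-0.48, adjusted p = 0.000725). Cdkn1a and Cdkn1b did not pass between the sexes at either age or in the uterus.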

How the data were processed

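RNA was extracted from sorted cells with PicoPure; fetal libraries were made from 250 ng RNA with a non-stranded TruSeq kit and uterine libraries with a stranded TruSeq kit, per the labels' protocols. The authors deposited raw read counts per gene in 2 tables (12 fetal and 6 uterine libraries, mm10) and a unified ATAC-seq peak list. The submitters' processing notes name STAR 2.5, featureCounts, Subread 1.5.0-p1, Bowtie 1.2, SAMtools 1.3.1, Picard, bedtools 2.24.0 and MACS2 2.1.1 without roles; whether counting used strand is not given in the sources used here.

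Each table was fitted by itself in R 4.3.3 with edgeR 4.0.16 (filterByExpr, TMM scaling, robust quasi-likelihood test over group means, Benjamini-Hochberg adjusted p under 0.05 over 17858 fetal and 16195 uterine genes). Levels are CPM of the TMM-scaled library size; per-kilobase levels use GENCODE vM21 exon unions. The test was run first on simulated counts. It recovered 79% of 1.5-fold changes for the E16.5 sex comparison and 70% for the uterine one. The mitosis genes moved together between libraries, and their median log2 fold changes in these comparisons were -0.41 and 0.37. The share recovered for changes of that kind was not tested. Alternatives were DESeq2 1.42.0, other scalings, no filter, a fit of the compared libraries alone, each library left out, a replicate block, and, added after seeing the data, both E16.5 replicate 3 libraries left out. Same-numbered E16.5 libraries of the 2 sexes deviated together from their group means (r = 0.284, 0.115 and 0.396 over genes). A pairing by number was inferred from this and is not stated by the labels. XX replicate 2 was nearly as close to XY replicate 1 (r = 0.108). The reported fit has no block, so its p-values do not use such a pairing, and the fit with one is an alternative. At E14.5 the same r were 0.073, 0.05 and 0.051, and in the uterus 0.002, 0.221 and 0.243. Neither set met this check, which took 0.1 as its limit, so whether libraries are paired there is not known.

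Members and gene lists were chosen with earlier results of these data known. Given with a value in every library are the 2 members of highest fetal mean in each of 8 roles and up to 3 with the largest called change in each direction of a comparison; genes of other lists are named by the largest called changes, with 7 regulators (Foxm1, Mybl2, Cdkn1a, Cdkn1b, Cdkn1c, Ccnd1 and Ccnd2) named in advance of their values. A gene of the other lists that this rule names is not reported here.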

Additional observations from a re-analysis of the deposited data

Results flagged for a closer look

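For 13 mitosis genes the difference between XX and XY at E16.5 differed from that at E14.5 by the test of the interaction itself (edgeR, adjusted p under 0.05 over all genes). Over all genes tested, 10.0% passed in either direction and 5.36% passed below 0. On the log2 scale, the change of the XX minus XY difference with age was -0.78 for Anln, -0.70 for Bub1, -0.62 for Cenpf, -0.61 for Nuf2, -0.58 for Mki67, -0.57 for Ccnb1, -0.55 for Ccnb2, -0.53 for Espl1, -0.50 for Ccna2, -0.46 for Cenpa, -0.45 for Bub1b, -0.45 for Tpx2 and 0.34 for Mad2l1. For the 12 genes below 0, the XX estimate fell with age relative to XY, and for Mad2l1 it rose. Only 4 of the 13, Ccnb2, Bub1, Nuf2 and Anln, passed whichever single library was left out.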

How the results depend on the processing

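Every count below is of mitosis genes with an adjusted p under 0.05, unless all genes are named. No gene's direction reversed past the threshold under any alternative run. Leaving out 1 library at a time, with a fit that pools the spread, gave 0 calls each time in the E14.5 sex comparison, 13 to 31 (29 with all libraries) in the E16.5 sex comparison, 15 to 27 (23) for age in XX, 0 to 2 (0) for age in XY, 5 to 21 (13) for the interaction and 4 to 24 (21) in the uterus. Over all genes tested these fits called 553 to 1678, 3618 to 5745, 5249 to 6460, 3364 to 3924, 1335 to 2687 and 1949 to 3521 in the same order. The cause was not tested. With the replicate number as a block the counts were 0, 31, 32, 0, 27 and 29 in the same order. The interaction thus moved from 13 to 27. Over all genes tested the block fits called 1581, 5901, 7811, 2425, 2592 and 4725, against 1121, 4883, 7068, 4168, 1790 and 3866. For the age comparisons the block fits used only the libraries compared, unlike the main fit. Without the block, fits of those libraries called 29 mitosis genes and 8263 of all genes in XX. In XY they called 0 and 2794. In the uterus and at E14.5 the numbers did not meet the check for pairing. For the age comparisons the block joined fetuses of different ages. Their same-numbered libraries had r from -0.027 to 0.003 in XX and from -0.081 to 0.04 in XY. DESeq2 gave 0, 31, 23, 0, 19 and 25, beside 1446, 4966, 7011, 4290, 2169 and 4248 of all genes. Scaling by library size alone gave 0, 31, 27, 0, 15 and 29, beside 1106, 4699, 7054, 4488, 1763 and 4489 of all genes. With that scaling the median of all uterine genes moved to 0.082. Without the low-count filter there were 24, 18, 12 and 21 calls in the E16.5 sex, XX age, interaction and uterine comparisons. Over all genes the calls there were 4571, 6552, 1789 and 3915. Fits of the compared libraries alone gave 20 at E16.5 and 29 for age in XX, beside 3735 and 8263 of all genes. Leaving out both E16.5 replicate 3 libraries gave 25, 31, 0 and 18 calls for the E16.5 sex difference, age in XX, age in XY and the interaction. Over all genes that setting gave 3464, 6896, 4016 and 1478. What depth limits was not tested.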
